A study of Rattus norvegicus with 144 samples.

Results

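The adrenal glands described here are the 12 taken from undosed male Sprague Dawley rats, 8 to 10 weeks old, in the AMG B study, 4 at day 1, 4 at day 4 and 4 at day 14, out of 144 arrays in the series. The rule that picked them used tissue, compound study and dose and no measured value, but it was set with earlier results of these data known. The series profiled adrenal, liver and pancreas after daily oral dosing with either of 2 compounds known here only by the code names AMG A and AMG B, described by the submitters as having antiangiogenic pharmacology. Beside the undosed rats stand 12 adrenals of rats given 3 mg/kg AMG B and 12 of rats given 60 mg/kg, again 4 at each day. The 12 undosed livers of the same AMG B study rats and 4 undosed day 14 adrenals of the AMG A study were also compared. The spread behind the adrenal tests was also estimated from day 14 adrenals of rats given 3 or 30 mg/kg AMG A, 4 of each dose. Livers of rats given 3 or 60 mg/kg AMG B entered the liver fit in the same way. Each array held the total RNA of 1 tissue of 1 rat, so the day groups share no animal, and the 4 rats of a day are separate animals. Undosed rats received a dose of 0 mg/kg; what, if anything, they were given in its place was not used here. The day 14 labels do not name the compound of the undosed adrenals, whose study was read from their animal numbers, 25 to 28.

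The adrenal gland joins a pair of endocrine organs in a single capsule. Its cortex makes steroid hormones from cholesterol, with aldosterone made in the outer zona glomerulosa and corticosterone, the main glucocorticoid of the rat, in the zona fasciculata beneath it. Its medulla is made of chromaffin cells of neural crest origin, which turn tyrosine into noradrenaline and adrenaline and store them in granules. Both are permeated by a dense bed of sinusoidal capillaries, and the gland lies in fat beside the kidney, so a dissected sample can hold traces of both.

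Deposited values were scores rather than RNA amounts. Every probe set had been centred and scaled by the submitters, to about 0 and an SD of about 1 over the arrays, so a difference of 1 is about 1 SD of that probe set across all tissues, and it is neither a fold change nor comparable in size between genes. For a gene found almost only in the adrenal, the gap between tissues fills most of that SD, and differences between days look small. A gene was called higher or lower where limma's adjusted p was under 0.05 over 14217 genes. Markers matched the tissue label: steroid genes Star, Cyp11a1, Cyp11b1 and Nr5a1 and medulla genes Th, Dbh, Pnmt and Chga were higher in every one of the 12 undosed adrenals than in any of 60 liver and pancreas arrays (Star, the cholesterol carrier of steroid synthesis, scored 1.16 to 1.54 in these adrenals, against at most -0.651 in liver and pancreas). No probe set with a single gene name represented Cyp11b2, the aldosterone synthase, or Mc2r, the receptor for the pituitary hormone ACTH.

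Day 14 adrenals stood apart from those of days 1 and 4. The first principal component of 28 adrenal arrays carried 31.9% of the variance, and undosed adrenals lay between -31.9 and -24.7 on it at day 1, between -42.2 and -16.3 at day 4, and between 38.1 and 44.4 at day 14. Rats given 3 mg/kg split the same way, at -36.9 to -21.2 on day 1, -43.8 to -15.2 on day 4 and 40.8 to 45.5 on day 14. The 4 undosed day 14 adrenals of the AMG A study lay at 27.9 to 40.3, on the side of the AMG B study's day 14 glands. Days 1 and 4 overlapped, and no array of day 14 came near them. The sources used here give no date or run for any array, so the day of dissection and any handling of arrays by day cannot be told apart.

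**Figure D1:**
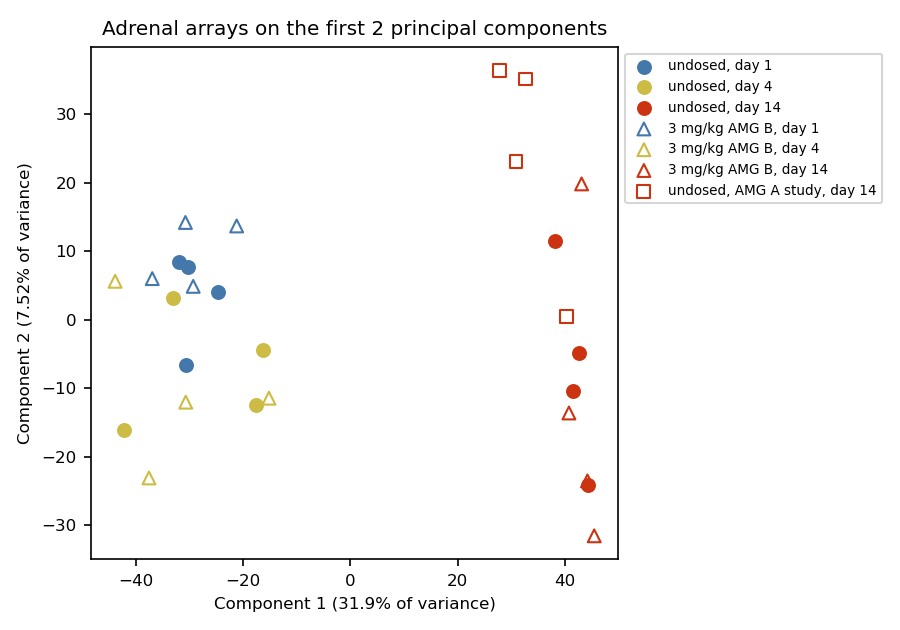
The first 2 principal components of 28 adrenal arrays, as scores on each component with its share of the variance on the axis; each point is 1 animal, shown by day and by dose and study. Every day 14 animal lies at 27.9 or above on the first component, and every day 1 and day 4 animal lies below -15.

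Between day 4 and day 1 the undosed adrenals differed by 1 called gene of 14217, which is 0.00703% of the genes tested; 1183 genes had an unadjusted p under 0.05. That gene was Shbg, the carrier protein of sex steroids. Shbg scored 0.954, 1.505, 1.01 and 1.20 in the 4 day 4 adrenals, against -0.0755, 0.201, 0.647 and 0.203 in the 4 day 1 adrenals. All 4 day 4 animals were above all 4 day 1 animals, with a difference of 0.92 ± 0.16 (SE; adjusted p = 0.0205). At day 14 Shbg was also above day 1, by 1.18 ± 0.16 (adjusted p = 2.2e-06), with scores of 1.06 to 1.59. The day 4 call was lost when any of animals 1, 4, 14 or 16 was left out, with adjusted p-values of 0.0615 to 0.154. In rats given 3 mg/kg, Shbg differed by only 0.19 ± 0.16 between days 4 and 1 (adjusted p = 0.838).

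Non-overlap of day 4 and day 1 was seen for 765 genes, 5.38% of those tested, nearly all without a call. Npas2, a transcription factor of the circadian clock, was among them, at 3.77, 1.60, -0.362 and 2.02 in day 4 adrenals, against -0.821, -0.369, -1.28 and -1.10 in day 1 adrenals. Day 4 animals 13, 14 and 16 were far above day 1 and animal 15 only just above it, and the difference of 2.65 ± 0.57 did not pass the test (adjusted p = 0.0985). Scnn1b, a subunit of the epithelial sodium channel that aldosterone regulates, ran the other way. It scored -0.349, -0.706, -0.489 and -0.233 in day 4 adrenals, against 1.31, 1.07, 1.63 and 0.598 in day 1 adrenals, a difference of -1.60 ± 0.35 (adjusted p = 0.101). Day 14 stayed at the day 4 level, between -0.788 and -0.448, and there the difference from day 1, -1.75 ± 0.35, passed (adjusted p = 0.000339). Rats given 3 mg/kg did not show it at day 4: their Scnn1b difference between days 4 and 1 was 0.98 ± 0.35, and the gap between the 2 sets of rats, 2.57, passed the test of the difference itself (adjusted p = 0.0489), as 1 of 2 genes that did (0.0141%). It no longer passed without any single one of animals 1, 2, 3, 5, 7, 8, 13, 14, 15, 16, 17 or 20 (adjusted p = 0.051 to 0.162).

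Genes of cholesterol synthesis and uptake, which feed steroid synthesis, had mostly negative differences from day 1. None was called, against 0.00703% of all genes at day 4 and 23.7% at day 14. Of 20 measured, 19 had a negative difference at day 4 (median -0.54) and 17 at day 14 (median -0.60), against medians of -0.00105 and 0.0746 over all genes. Sqle, the squalene epoxidase of that pathway, shows the spread behind them: it scored 0.963, 0.652, 1.21 and 1.80 at day 1, 0.0796, 0.182, 1.28 and 0.0807 at day 4, and 0.230, 0.325, 0.620 and 0.267 at day 14. One day 4 animal, number 15, was at the day 1 level, and neither Sqle difference from day 1 passed (adjusted p = 0.751 at day 4 and 0.23 at day 14). The list's mean scores per animal overlapped between days. They were 0.296 to 1.12 at day 1, -0.24 to 0.82 at day 4 and -0.118 to 0.356 at day 14. At 3 mg/kg, 18 of 20 were negative at day 14, with a median of -0.72, and 2 (10%) were called lower, against 9.03% of all genes. In livers of the undosed rats 17 of 20 were negative at day 4 (median -0.18) and 15 at day 14 (median -0.16), none of them called.

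Between day 14 and day 1 the picture was different: 3367 of 14217 genes, 23.7%, were called, 2243 higher (15.8%) and 1124 lower (7.91%). The 2 groups did not overlap for 4287 genes, 30.2%. The preponderance of higher calls depended on scaling, since 66.6% of calls were higher as deposited and 50.4% of 3295 calls after quantile normalization. Genes whose highest tissue mean, over the other arrays, was in the adrenal were called higher in 19.7% and lower in 5.33% of 4649 cases. Genes highest in liver were called higher in 14.4% and lower in 8.91% of 4244, and those highest in pancreas in 13.5% and 9.35% of 5324. The median difference was 0.23 for the genes highest in adrenal and 0.07 over all genes. The adrenal arrays behind these classes included day 14 glands of dosed rats and of the AMG A study. Genes high in those day 14 glands could enter the adrenal class for that reason, so its shares are not independent of the day.

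How far separate probe sets for 1 gene moved together bears on every gene named below. A second probe set was present for 4525 genes, and 1032 of these were called between day 14 and day 1 on the first. The second probe set had the same sign in 638 of those 1032 (61.8%), against 57.1% over all 4525 genes. Where both probe sets were called, 345 genes, they went the same way in 258 (74.8%) and opposite ways in 87. Those 258 were 206 higher and 52 lower, and the 74.8% is not given for each direction. Rats given 3 mg/kg gave much the same, with 730 of 1166 called genes matched in sign (62.6%) and 290 of 418 (69.4%) where both were called. The dose comparison on the same kind of array, 60 mg/kg minus undosed at day 14, had 359 of 419 called genes matched in sign (85.7%). Over all 4525 genes its share was 65.1%, higher than the 57.1% by day. Where both were called, 106 of 108 matched (98.1%). At days 1 and 4 the same doses gave 6 of 7 and 34 of 42 called genes matched in sign. The day 14 dose comparison shares the undosed day 14 arrays. Whether these shares differ by more than chance was not tested, and neither was what sets the day comparisons apart. A gene is named here with its second probe set where that one went the other way, with an adjusted p over all 31042 probe sets.

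**Figure D2:**
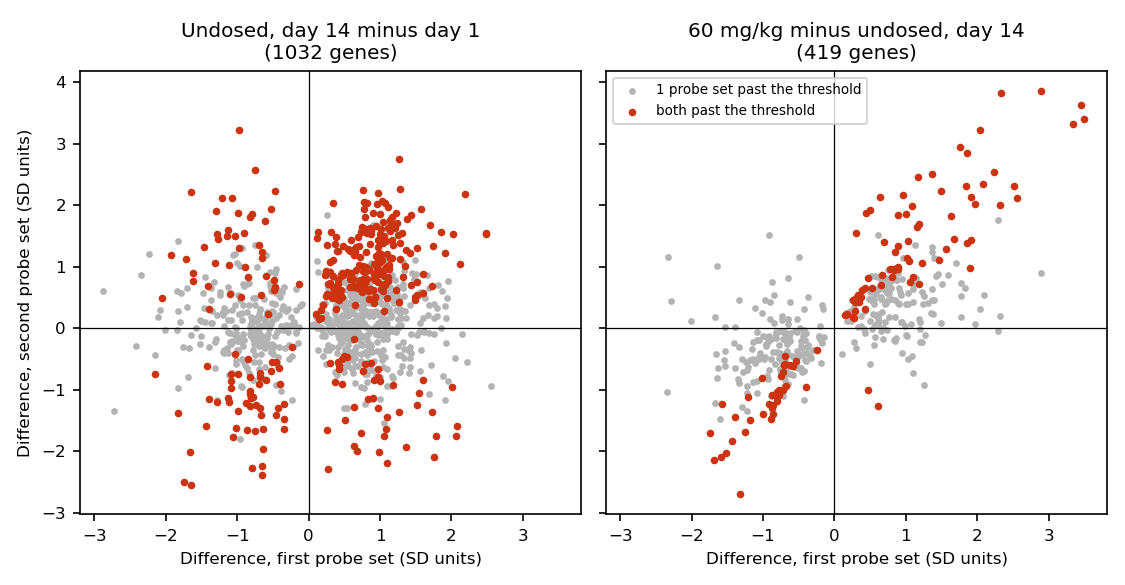
Difference in score on the second probe set (y axis) against that on the first (x axis), 1 point per gene called on its first probe set, for day 14 minus day 1 in undosed adrenals (left, 1032 genes) and for 60 mg/kg AMG B minus undosed at day 14 (right, 419 genes); red points were called on both. By day 87 red points lie in the quadrants of opposite sign, and by dose 2.

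Differences between days recurred in rats given 3 mg/kg, which share no array with the undosed ones. Of the 3367 genes called in undosed rats, 3293 (97.8%) had the same sign in rats given 3 mg/kg, against 79.8% of all genes, and 2205 were called in both in 1 direction. That is 65.5% of the undosed calls and 59.7% of the 3692 calls at 3 mg/kg, which were 26% of genes, 16.9% higher and 9.03% lower; none was called in opposite directions. Between days 4 and 1, rats given 3 mg/kg had 7 called genes, 0.0492%. Over the 14217 genes, which are not independent, the differences correlated at r = 0.786, and for day 4 minus day 1 at r = 0.21. No gene's change between days 14 and 1 was called different between the 2 doses (0 of 14217; 653 with an unadjusted p under 0.05).

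**Figure D3:**
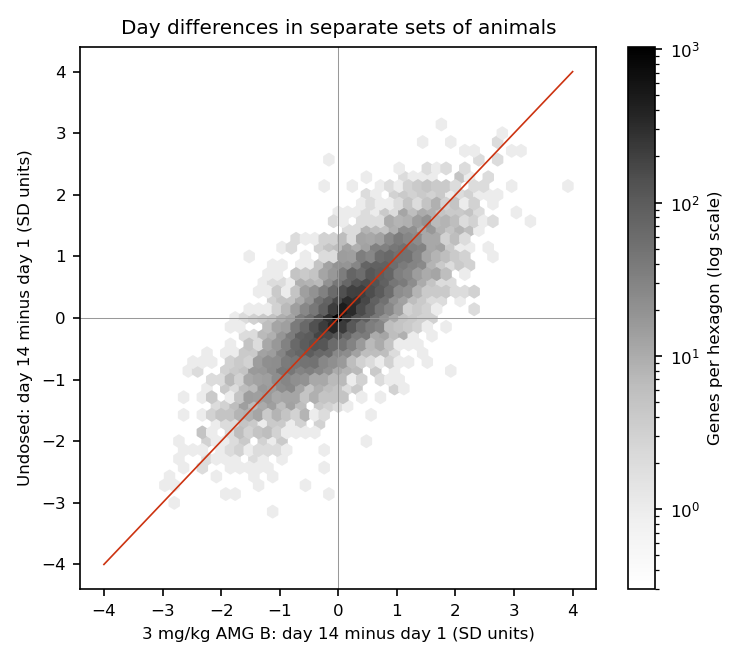
Day 14 minus day 1 differences in score for every gene, with rats given 3 mg/kg AMG B on the x axis and undosed rats on the y axis; shading counts genes on a log scale, and the diagonal marks equal differences. Most of the genes with large differences lie in the quadrants where both sets of rats have the same sign.

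Livers of the same undosed animals had 0 called genes at either comparison (1076 with an unadjusted p under 0.05 for day 4 minus day 1 and 1003 for day 14 minus day 1). Among the 3367 adrenal calls, 2122 (63.0%) had the same sign in liver, against 55.7% of all genes. The test of the difference, the adrenal change less the liver change, called 858 genes, 6.04%, for day 14 minus day 1 and 0 for day 4 minus day 1 (890 unadjusted). Among the largest were Grap2 (-3.33 ± 0.34, adjusted p = 2.07e-09), Cys1 (3.06 ± 0.65, adjusted p = 0.00219) and Klrb1b, a receptor of natural killer cells, at 3.92 ± 0.80 (adjusted p = 0.00159). For Klrb1b the gap drew on both tissues, 1.10 ± 0.35 in adrenal and -2.82 in liver, and the liver change did not pass by itself (adjusted p = 0.287). The count depended on single animals, and without animal 25 it was 479. Undosed day 14 adrenals of the AMG A study differed from those of the AMG B study by 242 called genes, 1.7%.

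The called genes described next were taken by the size of their score difference, which does not rank changes in RNA between genes, and their roles varied. Cys1, which encodes a protein of the primary cilium, scored 2.28, 2.92, 0.827 and 3.31 in day 14 adrenals, against -0.420, -0.262, -1.46 and -0.953 in day 1 adrenals. All 4 day 14 animals were above day 1, animal 27 least, with a difference of 3.10 ± 0.51 (adjusted p = 3.5e-05). Gspt2, a translation termination factor, followed at 2.57, 1.89, 2.52 and 2.15 in day 14 adrenals, against -1.02 to -0.469 in day 1 adrenals (3.00 ± 0.52, adjusted p = 6.19e-05). Bmyc, a rodent relative of Myc, scored 2.34, 1.58, 2.50 and 2.48, against -1.48 to 0.0621 (2.73 ± 0.38, adjusted p = 3.13e-06). Lztfl1, which controls traffic of proteins into cilia, was nearly level across day 14, at 1.19 to 1.27, against -2.03 to 0.0677 at day 1. Slc15a1, an oligopeptide transporter, rose by 2.64 ± 0.28, the most precise of these (adjusted p = 2.16e-08). Fam219a (2.88), Parpbp (2.82), Fdxacb1 (2.76) and Smarcd3 (2.72), the last a subunit of a chromatin remodelling complex, also had every day 14 animal above every day 1 animal. Anks3 rose by 2.85 ± 0.81 (adjusted p = 0.00898), but animals 1 and 3 were far below the other 2 day 1 animals, and without animal 1 its adjusted p was 0.0565. None of the genes in this paragraph differed by a called amount at day 4.

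Among called genes with the most negative score differences was Grap2, an adaptor in T cell receptor signalling, at -2.21, -3.13, -2.43 and -2.27 in day 14 adrenals, against 0.925, 0.810, 0.273 and 0.762 in day 1 adrenals. These groups were far apart, by -3.20 ± 0.44 (adjusted p = 2.62e-06). Grap2 was lower in all 4 day 14 rats given 3 mg/kg too, but by -1.11 ± 0.44, without a call (adjusted p = 0.06). Mstn, the muscle growth inhibitor myostatin, was uneven at day 14, at -4.01, -0.685, 0.0579 and 0.433, against 1.39 to 2.85 in day 1 adrenals (-2.98 ± 0.67, adjusted p = 0.00115). Slit3, a secreted guidance ligand, scored 0.0286, -0.0440, -0.0737 and -0.0367 at day 14, against 3.16, 2.92, 2.95 and 2.49 at day 1 (-2.91 ± 0.60, adjusted p = 0.000492). Its day 4 adrenals split, with animal 16 at 3.19 and the others between 0.0759 and 0.410. Ppm1n, of a family of protein phosphatases, fell by 2.69 ± 0.36 (adjusted p = 1.33e-06), and the difference was -2.89 in rats given 3 mg/kg. Krt25, a hair follicle keratin, fell by 2.75 ± 0.61 (adjusted p = 0.0011). Btbd17 fell by 2.88 ± 0.51 on the probe set used (adjusted p = 8.76e-05), while its second probe set differed by 0.61 (adjusted p = 0.372).

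**Figure D4:**
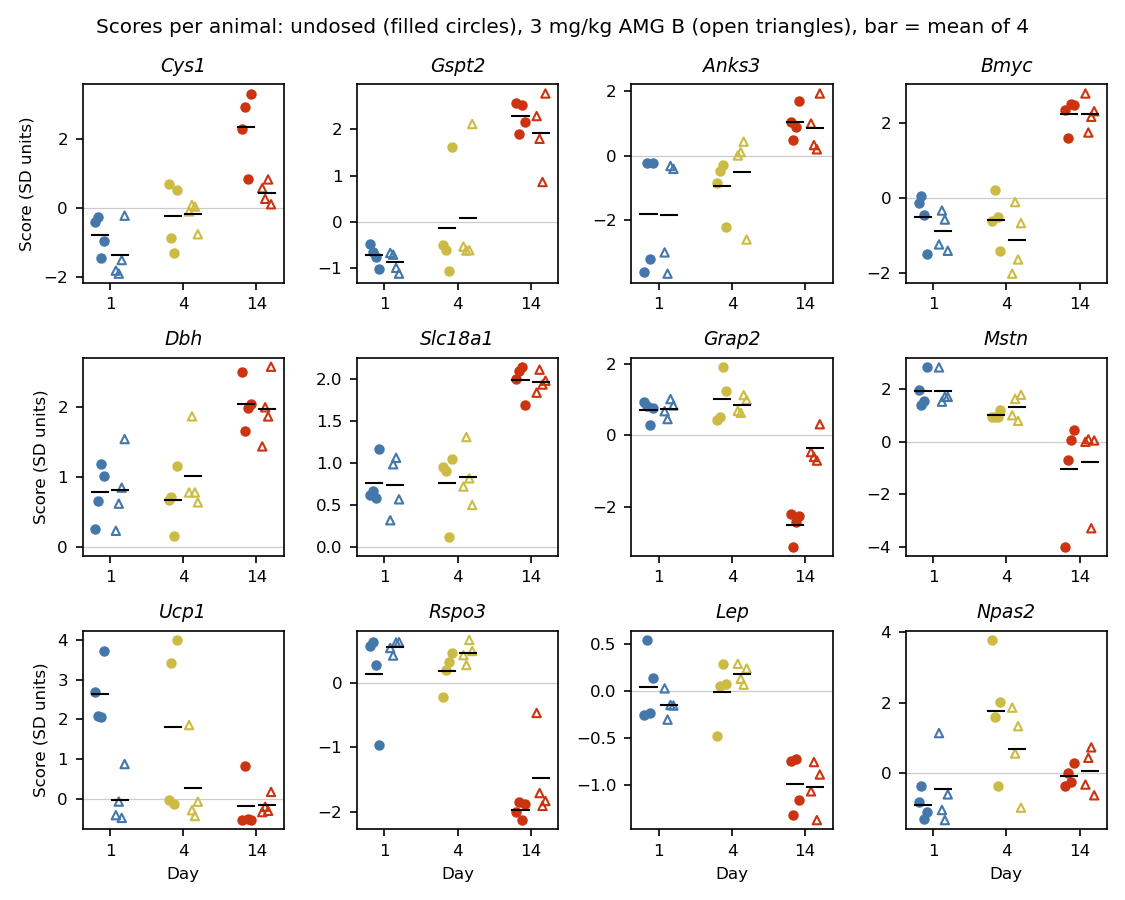
Scores of 12 genes (y axis) by day (x axis, 1, 4 and 14) in undosed adrenals (filled circles) and adrenals of rats given 3 mg/kg AMG B (open triangles), 1 point per animal, with the mean of 4 as a bar; the genes were chosen after their values were seen. For Grap2 and Cys1 the 4 day 14 animals do not overlap the 4 day 1 animals, and day 4 overlaps day 1.

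Of 24 medulla genes measured at day 14, 23 had a positive difference from day 1, with a median of 0.55, against 58.3% positive and a median of 0.07 over all genes and 65% positive and 0.23 over genes highest in adrenal. Slc18a2 was positive without a call on the probe set used (0.45). Its other probe sets differed by -1.10 (adjusted p = 0.00806) and -1.05 (adjusted p = 0.0395). Called higher were 5 of 24 (20.8%, against 15.8% of all genes and 19.7% of genes highest in adrenal): Dbh, Slc18a1, Uchl1, Cyb561 and Scg3. The list's mean score was 0.568 to 0.852 in day 14 animals, against 0.091 to 0.387 in day 1 animals, without overlap. Dbh, the enzyme that makes noradrenaline from dopamine, scored 2.51, 1.66, 2.00 and 2.04 in day 14 adrenals, against 0.257, 0.663, 1.18 and 1.02 in day 1 adrenals, a difference of 1.27 ± 0.41 (adjusted p = 0.0204). Its call was lost without animal 1 or animal 25 (adjusted p = 0.0755 at most). Slc18a1, which loads catecholamines into granules, scored 1.70 to 2.15 at day 14, against 0.583 to 1.17 at day 1 (1.23 ± 0.37, adjusted p = 0.0131), and the neuronal ubiquitin hydrolase Uchl1 scored 1.31 to 1.74, against 0.153 to 0.626 (1.20 ± 0.32, adjusted p = 0.00531). Both stood above day 1 in all 4 animals. Cyb561 (adjusted p = 0.0467) and Scg3 were borderline: Cyb561 lost its call without any 1 of the 8 animals (adjusted p = 0.0501 to 0.134) and Scg3 without animals 2, 3, 25, 27 or 28 (0.0532 to 0.0799). Both calls were also lost after quantile normalization. Th, the first enzyme of the pathway, had all 4 day 14 animals above day 1 and no call (0.56 ± 0.34, adjusted p = 0.247), and Pnmt, which makes adrenaline, overlapped (0.59 ± 0.47, adjusted p = 0.384). In rats given 3 mg/kg, 8 of 24 were called higher (33.3%, against 16.9% of all genes) with a median of 0.70. In whole glands, more medulla cells, more RNA per cell and any handling of arrays by day cannot be told apart.

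The promoter of Dbh, the 250 bases before its annotated start on GRCr8 chr3:30886078-30886327, plus strand, is shown because Dbh is the medulla enzyme with the largest called difference; the sequence is from RefSeq, and capitals mark CCAAT read on the reverse strand (ATTGG).
Dbh: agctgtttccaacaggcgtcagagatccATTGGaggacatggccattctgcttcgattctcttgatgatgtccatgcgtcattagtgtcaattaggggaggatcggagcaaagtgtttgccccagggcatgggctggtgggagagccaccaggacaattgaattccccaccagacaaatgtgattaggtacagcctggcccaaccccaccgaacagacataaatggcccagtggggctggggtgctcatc
CCAAT in either orientation was in 34% of 33469 rat promoters of this length.

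Of 19 steroid synthesis genes measured, 2 were called higher at day 14 (10.5%, against 15.8% of all genes), Cyp11a1 and Tspo, with a list median of 0.0354. These genes are expressed far above liver and pancreas, so their scores compress any difference between days. Cyp11a1, which makes the first steroid from cholesterol, scored 1.54, 1.41, 1.55 and 1.39 in day 14 adrenals, against 1.31, 1.37, 1.08 and 1.23 in day 1 adrenals. The groups did not overlap but lay close, 0.22 ± 0.08 apart (adjusted p = 0.0399), and after quantile normalization the difference was -0.0085; without animal 3, 4, 25 or 27 the call was lost (adjusted p = 0.0778 to 0.168). Tspo, a protein of the outer mitochondrial membrane, differed by 0.35 ± 0.10 (adjusted p = 0.0117, and 0.0542 without animal 4). After quantile normalization neither Cyp11a1 nor Tspo was called. Star differed by 0.04 ± 0.09 (adjusted p = 0.82) and Cyp11b1, which makes corticosterone, by 0.02 ± 0.10 (adjusted p = 0.902), with overlap in both. None of the 19 was called between days 14 and 1 in rats given 3 mg/kg, against 26% of all genes.

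Among 19 zonation genes, 1 was called higher (5.26%, against 15.8% of all genes) and 2 lower (10.5%, against 7.91%) at day 14. Kcnk9, a potassium channel of zona glomerulosa cells, scored 5e-05, 0.218, 0.0788 and 0.114 in day 14 adrenals, against 1.40, 1.36, 1.47 and 1.55 in day 1 adrenals. It fell by 1.34 ± 0.32 (adjusted p = 0.00195), and the difference was -1.13 at 3 mg/kg (adjusted p = 0.00745). Rspo3, a Wnt-enhancing signal of the capsule, scored -2.13 to -1.85 at day 14, against -0.959 to 0.639 at day 1 (-2.10 ± 0.33, adjusted p = 2.04e-05), while its second probe set differed by 0.18 (adjusted p = 0.64). Cyb5a, which aids the lyase reaction of Cyp17a1, rose by 0.63 ± 0.18 (adjusted p = 0.00989), and was higher without a call at 3 mg/kg (0.42, adjusted p = 0.0807).

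Of 16 fat genes measured in undosed rats at day 14, 15 had a negative difference (median -0.62) and 3 were called lower (18.8%, against 7.91% of all genes): Ucp1, the uncoupling protein of brown fat, Plin4, a lipid droplet coat protein, and Lep, the hormone leptin. Ucp1 scored -0.528, 0.830, -0.513 and -0.525 in day 14 adrenals, against 2.69, 2.08, 2.06 and 3.71 in day 1 adrenals (-2.82 ± 0.90, adjusted p = 0.0197). Day 4 split, with animals 14 and 16 at 3.42 and 4.00 and animals 13 and 15 at -0.0330 and -0.128. Plin4 (-1.83 ± 0.58, adjusted p = 0.0185) was likewise highest at day 4 in animal 16, at 4.05, and so were the insulin-responsive glucose transporter Slc2a4, at 4.98, and Fabp4, at 2.77. Animal 26 was the highest of day 14 in Ucp1, Plin4, Slc2a4, Fabp4 and Adipoq. The fat list's mean score was -0.285 to 0.311 in day 14 animals, against 0.372 to 1.03 in day 1 animals, and spanned -0.309 to 1.70 at day 4. In rats given 3 mg/kg only Lep of the 16 was called (-0.88 ± 0.20, adjusted p = 0.0016), and Ucp1 differed by -0.14. That is 6.25% called lower, against 9.03% of all genes. Leaving out animal 4 or 28 ended the Ucp1 call (adjusted p = 0.0686 at most), animal 2, 4 or 25 that of Plin4 (0.069 at most) and animal 27 that of Slc2a4 (0.0506).

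Of 11 kidney genes measured, 4 were called higher at day 14 (36.4%, against 15.8% of all genes) and 4 had a negative difference, with a list median of 0.13. Calb1, a calcium-binding protein of the distal tubule, scored 2.24, 2.45, 1.98 and 0.927 in day 14 adrenals, against -1.26 to 0.0887 in day 1 adrenals (2.33 ± 0.46, adjusted p = 0.000323). Slc22a6, an anion transporter of the proximal tubule, differed by 2.33 ± 0.48 (adjusted p = 0.000449) and Aqp2, the water channel of the collecting duct, by 0.96 ± 0.23 (adjusted p = 0.00251). Slc34a1, a phosphate transporter, was the other (0.50 ± 0.16, adjusted p = 0.0202), but the groups overlapped, its second probe set fell by 0.45 (adjusted p = 0.0311), and its call was lost without animal 1, 4, 25 or 27 (0.0794 at most). Slc12a1, the salt transporter of the thick ascending limb, differed by -0.83 (adjusted p = 0.115), and Umod, a protein of the same segment, by -0.49 (adjusted p = 0.324). The list's mean score was 0.0567 to 0.301 in day 14 animals, against -0.358 to -0.0938 in day 1 animals. In rats given 3 mg/kg 1 of 11 was called higher (9.09%, against 16.9% of all genes), Aqp2 (0.83, adjusted p = 0.00844). Called lower there were 2 (18.2%, against 9.03% of all genes). Against day 4, 3 of 11 were called higher (27.3%, against 16% of all genes) and 6 were negative. No gene of the 11 hepatocyte or 11 exocrine pancreas markers was called between days 14 and 1, against 23.7% of all genes. The share of fat or kidney tissue in these samples was not measured, and its part in other differences was not tested.

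Of 24 interferon-inducible genes measured, 4 were called higher at day 14 (16.7%, against 15.8% of all genes) and 1 lower (4.17%, against 7.91%), with a list median of 0.0791, so the shares were near those of all genes. Psmb10, a subunit of the immunoproteasome, scored 0.435, 0.129, -0.0621 and -0.138 in day 14 adrenals, against -0.330, -0.432, -0.345 and -0.508 in day 1 adrenals, without overlap (0.50 ± 0.11, adjusted p = 0.000705). Ifit3, an antiviral effector, scored 1.66, 1.20, -0.0592 and -0.187, against -0.475, -1.56, -0.843 and -1.12 (1.66 ± 0.54, adjusted p = 0.0231). The ubiquitin-like Isg15 scored 2.65, 2.42, 0.117 and 1.04, against 0.0848 to 0.124 (1.45 ± 0.53, adjusted p = 0.0417). Animals 25 and 26 were thus the highest of day 14 in all 3, and animal 27 was within the day 1 range for Isg15. Oas1b, of the oligoadenylate synthetase family, was called (1.66 ± 0.62, adjusted p = 0.0479) with overlap, on low scores in animals 1 and 2 of day 1, -3.15 and -3.56. Bst2, a membrane tether of viruses, fell by 0.84 ± 0.23 (adjusted p = 0.00755). Leaving out single animals ended the calls of Ifit3 (animal 2, 25 or 26; adjusted p = 0.102 at most), Isg15 (animal 1, 2, 3, 4, 25 or 26; 0.171 at most) and Oas1b (animal 1, 2, 26, 27 or 28; 0.211 at most), and of neither Psmb10 nor Bst2. In rats given 3 mg/kg 8 of 24 were called higher (33.3%, against 16.9% of all genes) and none lower, with a median of 0.72.

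Promoters of 3 of these genes, the 250 bases before the annotated start on GRCr8, are printed from RefSeq because these genes were called higher in the same comparison; they were picked after motif matches had been seen. Capitals mark GAAA followed by any 2 bases and GAAA again, on either strand, the core spacing of interferon response elements, and also TTATGTAA read on the reverse strand in Ifit3 (the earlier capitals) and CCAAT on the reverse strand in Oas1b (the earlier capitals). Ifit3 lies at chr1:241527076-241527325, plus strand, Psmb10 at chr19:50743293-50743542, minus strand, and Oas1b at chr12:41395853-41396102, minus strand.
Ifit3: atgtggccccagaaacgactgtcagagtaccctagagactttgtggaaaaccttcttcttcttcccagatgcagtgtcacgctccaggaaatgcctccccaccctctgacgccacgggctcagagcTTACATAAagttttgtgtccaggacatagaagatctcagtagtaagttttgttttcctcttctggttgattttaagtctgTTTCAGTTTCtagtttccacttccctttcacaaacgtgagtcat
Psmb10: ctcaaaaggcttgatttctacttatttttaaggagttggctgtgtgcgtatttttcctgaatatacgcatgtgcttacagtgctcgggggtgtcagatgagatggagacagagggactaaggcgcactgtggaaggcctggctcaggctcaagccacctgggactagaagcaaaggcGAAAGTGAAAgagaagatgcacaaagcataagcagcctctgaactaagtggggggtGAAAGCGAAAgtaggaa
Oas1b: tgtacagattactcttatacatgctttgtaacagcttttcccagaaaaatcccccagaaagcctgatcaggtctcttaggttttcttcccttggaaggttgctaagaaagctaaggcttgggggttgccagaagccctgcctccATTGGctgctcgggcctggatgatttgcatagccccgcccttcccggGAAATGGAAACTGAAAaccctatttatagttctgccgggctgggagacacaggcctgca
Psmb10 held 2 separate matches, Oas1b 2 that overlap, and Ifit3 1. Isg15, also called higher, had no promoter among the sequences used and was not searched. The paired GAAA pattern was in 3.41% of 33469 promoters of this length, and TTATGTAA in 0.828%. A match is a string of letters, not a bound site.

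Immune cell genes gave mixed calls. Mrc1, the macrophage mannose receptor, rose by 0.75 ± 0.23 (adjusted p = 0.0156; lost without animal 1 or 26, 0.0574 at most), at -0.127 to 0.386 in day 14 adrenals, against -0.901 to -0.449 in day 1 adrenals. With Aif1 it made 2 of 18 macrophage genes called higher (11.1%, against 15.8% of all genes), and Aif1's second probe set fell by 1.49 (adjusted p = 1.98e-06), so its direction is unsettled; the mean of its probe sets differed by -0.49. Against day 4 the count was 8 of 18 (44.4%, against 16% of all genes), with a median of 0.42. Aif1 was among these 8, and its second probe set fell by 0.95 against day 4 (adjusted p = 0.000776). In rats given 3 mg/kg, 3 of 18 were called higher against day 4 (16.7%), with a median of 0.18, and 2379 of all 14217 genes were. Lymphocyte genes were called both ways, 3 of 12 higher (25%, against 15.8% of all genes) and 3 lower (25%, against 7.91%). Cd3g, a chain of the T cell receptor complex, rose by 0.33 ± 0.07 (adjusted p = 0.00035), while Cd2, an adhesion receptor of T cells, fell by 0.68 ± 0.13 (adjusted p = 0.000159) and Il7r, the interleukin 7 receptor, had a difference of -0.82 ± 0.14 (adjusted p = 5.81e-05) on the probe set used and of 0.0247 on its second (adjusted p = 0.871).

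Endothelial genes, the cell type that antiangiogenic agents address, were called lower in 5 of 25 (20%, against 7.91% of all genes) and higher in 2 of 25 (8%, against 15.8%) at day 14, with a median of -0.11. Tek, the angiopoietin receptor, scored 1.51, 1.34, 1.09 and 0.862 in day 14 adrenals, against 2.40, 1.71, 2.55 and 2.22 in day 1 adrenals, with no overlap (-1.02 ± 0.24, adjusted p = 0.00189). Kdr, the main VEGF receptor, differed by -0.23 ± 0.08 (adjusted p = 0.0391; lost without animal 2, 4, 25, 26 or 28, 0.118 at most), and the other VEGF receptor Flt1 by -0.86 ± 0.27 (adjusted p = 0.0157; lost without animal 1, 3, 25 or 28, 0.111 at most). Ptprb (-0.97; second probe set 0.23, adjusted p = 0.663) and Aplnr (-0.54; second probe set 0.91, adjusted p = 0.105) were called lower on the probe set used only. The Ptprb call was lost without animal 3, 4, 25 or 27 (0.154 at most), and the mean of the Aplnr probe sets differed by 0.19. Egfl7, an endothelial secreted protein, rose by 0.87 ± 0.32 on the probe set used (adjusted p = 0.0465), while its second probe set differed by -0.0194 (adjusted p = 0.979). For Egfl7, animal 4, at -0.201, lay far below the other day 1 animals; without animal 1, 4, 25, 26 or 28 the call was lost (0.237 at most). Clec14a rose by 0.99 (adjusted p = 0.0175; 0.0909 at most without animal 2, 4, 27 or 28). Vegfa, the ligand, overlapped between days (0.42 ± 0.34, adjusted p = 0.389).

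Of 40 cell cycle genes, 4 were called higher at day 14 (10%, against 15.8% of all genes): Aurka, a mitotic kinase, Mcm6 and Mcm7, subunits of the replicative helicase, and Mad2l1, of the spindle checkpoint. Aurka scored 1.64, 2.04, 1.78 and 1.76 in day 14 adrenals, against 0.814, 0.757, 0.290 and 0.331 in day 1 adrenals (1.26 ± 0.33, adjusted p = 0.00532). Mcm6 (0.80 ± 0.27, adjusted p = 0.027) lost its call without animal 3, 4, 25, 27 or 28 (0.0793 at most), Mcm7 (0.90 ± 0.27, adjusted p = 0.0134) without animal 28 (0.0671), and Mad2l1 (0.71 ± 0.27, adjusted p = 0.0483) without animal 2, 3, 4, 26, 27 or 28 (0.166 at most); another Mad2l1 probe set fell by 0.85 (adjusted p = 0.0334). Rats given 3 mg/kg had 13 of 40 called higher (32.5%, against 16.9% of all genes) and 1 lower (2.5%, against 9.03%). Of 23 immediate early genes, which neurons and hormone-stimulated cells switch on within minutes, 20 had a positive difference at day 14 (median 0.60) and 2 were called higher (8.7%, against 15.8% of all genes). Day 14 animal 26 had a list mean of 1.815, far above the rest of its group, whose list means of 0.0727 to 0.496 overlapped the day 1 range of -0.131 to 0.276. Fos scored 1.09, 0.734, 0.820 and 1.22 in day 14 adrenals, against 0.107, -0.00825, -0.00117 and 0.333 in day 1 adrenals (0.86 ± 0.21, adjusted p = 0.00317), and the mean of its probe sets was not called. Egr3 was called with overlap (0.91, adjusted p = 0.0159; 0.122 at most without animal 1, 2 or 25). Of 18 clock genes only Cry1, a repressor in the clock's loop, was called (5.56%, against 23.7% of all genes; 0.75 ± 0.27, adjusted p = 0.0398), and it lost its call without any 1 of animals 1, 2, 3, 4, 25, 26 or 27 (0.0592 to 0.0952). No glucocorticoid-responsive gene of 17 was called, against 23.7% of all genes. Hours of dissection were not used here.

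Counts for the remaining lists at day 14 stand against 15.8% of all genes called higher and 7.91% lower, and lists this short move in large steps. Genes of the NRF2 and glutathione response, which handles oxidants, were called higher in 3 of 15, heat shock genes higher in 2 and lower in 1 of 12, respiratory chain genes higher in 4 and lower in 3 of 28, and hypoxia-inducible genes higher in 1 and lower in 2 of 23. Extracellular matrix genes were called lower in 1 of 26, with 24 negative and a median of -0.20, against 15 of 26 negative and a median of -0.03 in rats given 3 mg/kg. Schwann cell genes were called higher in 2 and lower in 1 of 11, pericyte genes higher in 1 and lower in 2 of 16, and skeletal muscle genes higher in 1 of 16. Genes of the ER stress response were higher in 1 and lower in 2 of 20, inflammatory genes higher in 1 of 18, MHC class II genes higher in 1 of 8, erythroid genes higher in 2 and lower in 1 of 8, and imprinted growth genes lower in 1 of 12.

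**Figure D5:**
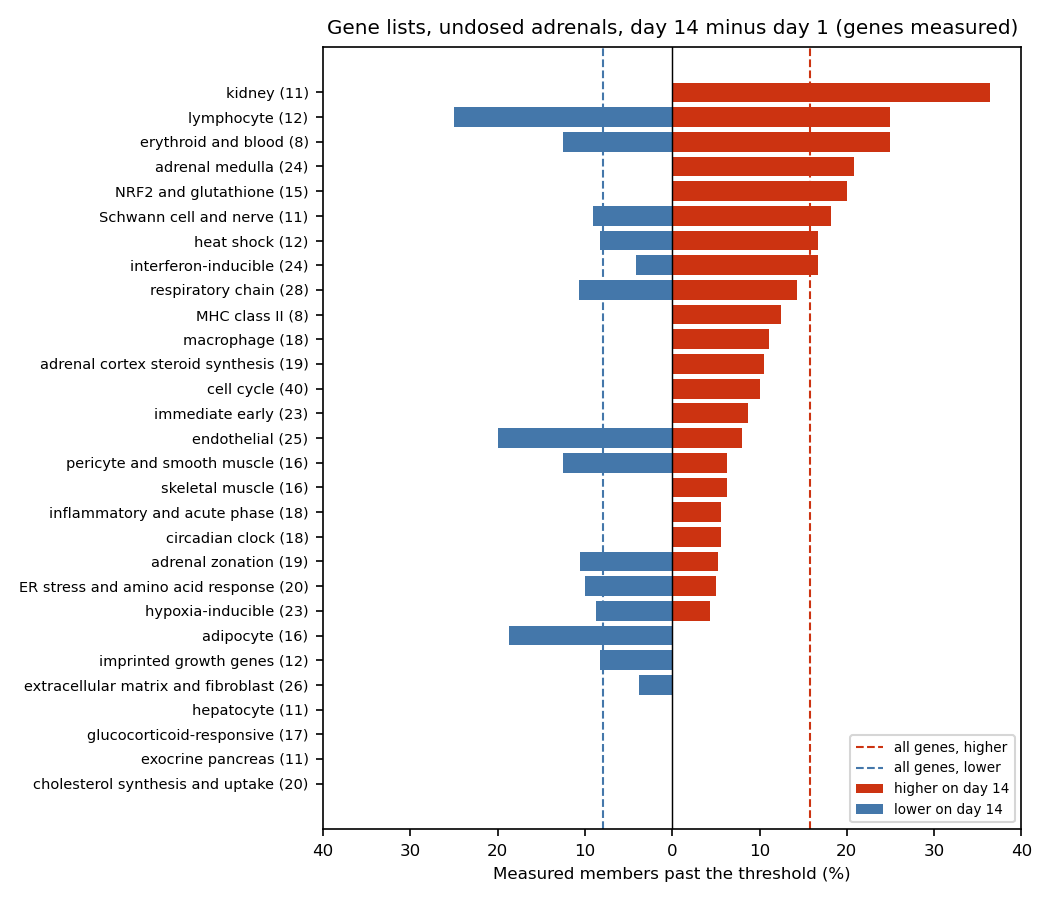
Percent of the measured genes of each list called higher and lower in undosed adrenals, day 14 minus day 1, with the number measured in brackets; bars to the right are higher, bars to the left lower, and dashed lines mark the percent over all genes (15.8 higher, 7.91 lower). Short lists move in large steps, so 4 of 11 kidney genes is 36.4%.

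Day 14 set against day 4 gave nearly the counts that it gave against day 1, and the 2 comparisons share the day 14 arrays. Called were 3419 genes, 24%, 2275 higher (16%) and 1144 lower (8.05%), and the groups did not overlap for 3891 genes, 27.4%. As deposited 66.5% of the calls were higher, and after quantile normalization 50.2%. Grap2 was again lower (-3.53 ± 0.44, adjusted p = 5.08e-07), and Dio2, which activates thyroid hormone, fell by 2.61 ± 0.59 (adjusted p = 0.00121), scoring -2.22, -1.52, -0.963 and -1.18 in day 14 adrenals, against 0.935, 1.12, 1.33 and 1.19 in day 4 adrenals. Leng9 rose by 3.14 ± 0.38 (adjusted p = 2.97e-07), although animal 28, at 0.625, was well below the other 3 at 2.01 to 2.21. Medulla genes were called higher in 8 of 24 (33.3%, against 16% of all genes and 19.3% of genes highest in adrenal), Dbh by 1.38 ± 0.41 (adjusted p = 0.0121). Slc18a2 was called higher on the probe set used, while another of its probe sets fell by 1.41 (adjusted p = 0.00597). Cyb561 lost its call without any 1 of animals 13, 14, 15, 16, 25, 26 or 27 (adjusted p = 0.0541 to 0.131), and Slc18a1 without animal 15 (0.0608). Phox2a lost its call without animal 13, 14, 15, 25, 27 or 28 (0.0503 to 0.141). Gata3 lost its call without animal 15, 25, 27 or 28 (0.0523 to 0.088), and with the mean of its probe sets. After quantile normalization the calls of Cyb561, Phox2a, Gata3 and Scg3 were lost too. Npas2, the clock gene that was high in 3 day 4 animals, was lower at day 14 by -1.82 ± 0.57 (adjusted p = 0.0172; 0.132 without animal 13).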

How the data were processed

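RNA of 1 tissue of 1 rat was hybridised to each Affymetrix array after one-cycle biotin labelling of 5 ug total RNA, per the labels' protocols. The deposited values are scores, which the authors had standardised per probe set over the arrays (median SD 1.006 for the 15866 probe sets in both tables, over 144 arrays). How arrays were scanned, summarised and scaled is not given in the sources used here. Precision of each value is limited by the number of arrays, 4 per day. Log2 signal had been planned for; the scores were fitted as deposited.

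Of 31042 probe sets, 20826 had 1 gene symbol in the platform annotation, 436 had several and 9780 had none. For each of 14217 genes, the probe set whose variance lay most between tissues was used. Group means over 48 adrenal arrays, those of both studies at every dose, were fitted with limma 3.58.1 in R 4.3.3. Empirical Bayes with a trend was used, with Benjamini-Hochberg adjustment over all genes. The liver fit used 36 arrays and the adrenal minus liver fit 72. The fit was checked on simulated data.

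Days share no animals, so they cannot be paired. Adrenal and liver deviations of the same animal had a median correlation of 0.048 over 36 animals (lowest -0.004), against -0.0153 between different animals, and were not treated as paired.

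The samples described, the 29 gene lists and the rule for named genes were chosen with earlier results of these data known. The rule took the 12 largest called genes in each direction with groups that do not overlap, and up to 4 called genes per list; further list genes, the choice among named genes, the promoters shown, the paired GAAA motif and the 60 mg/kg probe set comparison were chosen after values were seen. Alternatives tried were quantile normalization, the mean of a gene's probe sets, every probe set, a filter keeping genes over the 40th percentile in at least 4 arrays, fewer arrays in the fit, no trend, array weights, the animal as a block, and each animal left out. No pseudocount was tried, since scores run below 0.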

Additional observations from a re-analysis of the deposited data

Results flagged for a closer look

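Of 309 groups of 4 animals checked over 103 genes, 21 held an animal whose gap to the nearest other over the group's range exceeded Dixon's critical value. Chance flags about 1 group in 20, so 21 is near what chance gives, and the genes were not independent. Animal 26 stood apart at day 14 for Bmyc (1.58), Ucp1 (0.83), Uchl1 (1.31) and Fabp4 (0.69), low in Bmyc and Uchl1 and high in the fat genes Ucp1 and Fabp4. Animal 28 stood low at day 14 for Leng9 (0.63) and Dhcr7 (1.00) and high for Tk1 (-0.66), and animal 27 high for Pnmt (1.79). At day 4, animal 16 stood apart for Mstn (1.18), Slit3 (3.19) and Isg15 (-0.27), animal 15 for Tepsin (-0.98), Slc18a1 (0.12) and Sqle (1.28), and animal 14 for Calb1 (-0.37). At day 1, animal 4 stood apart for Pitx3 (0.13), Slc18a1 (1.17) and Egfl7 (-0.20), and animal 3 for Phox2a (1.07), Bhlhe41 (1.47) and Vegfa (0.063).

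The change between days 4 and 1 differed between rats given 3 mg/kg and undosed rats for Scnn1b (3 mg/kg minus undosed 2.57, adjusted p = 0.0489) and Rnf223 (-1.66, adjusted p = 0.0383). The Rnf223 call was lost without animal 1, 3, 5, 7, 15, 16, 17 or 20 (adjusted p = 0.0589 to 0.156). The change between days 14 and 1 differed between adrenal and liver for 858 genes.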

How the results depend on the processing

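The day 4 minus day 1 count of 1 was unstable: it was 27 after quantile normalization, 3 with the mean of probe sets, 0 of all probe sets, 10 with only the 12 undosed arrays, 0 with only the AMG B study, 41 with array weights, and 0 to 22 with 1 animal left out (22 without animal 15). The 3367 genes called between days 14 and 1 became 7863 of 31042 when every probe set was tested, and 2630 to 3095 with 1 animal left out; the 3419 between days 14 and 4 became 7931, and 2530 to 3119. Other settings moved these 2 counts by less than 1.5 times, up to 4628 and 4062 with array weights. Quantile normalization took the share of higher calls to 50.4% and 50.2%. Named genes that lost a higher call between days 14 and 1 by it included Cyp11a1, Tspo, Cyb561, Scg3, Isg15, Oas1b, Mcm6, Mad2l1 and Egfl7.

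For rats given 3 mg/kg, the 7 day 4 calls became 21 after quantile normalization and 14 with the mean of probe sets, and 2 to 29 with 1 animal left out. The 2 genes whose day 4 change differed by dose became 6 after quantile normalization, and 0 to 7 with 1 animal left out; at day 14 the 0 became 0 to 2. Liver counts of 0 reached 1 without animal 13 (day 4) or 25 (day 14). With 1 animal left out, the adrenal minus liver count was 0 to 6 at day 4 and, in place of 858, 479 to 768 at day 14, and the difference between studies was 105 to 219 in place of 242. With the animal as a block for its adrenal and liver, 1005 genes replaced the 858 (consensus correlation 0.0458).

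The 140 calls on single genes in the undosed comparisons were chosen by rule or after values were seen, so they do not stand for all calls. Of these 140, 45 were lost with an animal left out and 11 only under other settings. The other 84 held under every alternative in this tally, which left out the test of every probe set. Rspo3 and Btbd17 thus count as held between days 14 and 1, although their second probe sets were not called (adjusted p = 0.64 and 0.372). Reversed were Aif1 with the mean of probe sets (-0.49 for day 14 minus day 1, -0.10 for day 14 minus day 4), Aplnr (0.19, day 14 minus day 1) and Slc18a2 (-0.41, day 14 minus day 4) likewise, and Cyp11a1 after quantile normalization (-0.0085, day 14 minus day 1); the causes were not tested. The pseudocount alternative was not run. With 4 arrays per day and standardised scores, the size of a change in RNA cannot be read from any difference.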
